A study of Mus musculus with 8 samples.

Results

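The genes Mymk, Cdh2, Cdh11, Cdh15, Cdon, Boc, Jam2, Jam3, Ncam1 and Vcam1 act in myoblast fusion and in the contacts between myoblasts that precede it. These 10 genes were named by function, with earlier results of these data known, among the 21951 protein-coding genes of the annotation. They were examined for WFS1 peaks in the gene or within 100 kb of either end. WFS1 is a transmembrane protein of the endoplasmic reticulum that the study also places in the inner nuclear membrane. It was immunoprecipitated from wildtype, proliferating C2C12 cells, a mouse myoblast line, after crosslinking with DSG and formaldehyde, and the recovered DNA was sequenced. The experiment holds 8 libraries, and peak lists of 2 were examined. One was made after 30 sonication cycles, and the other from a portion of the same immunoprecipitate after 6 further cycles. Each cycle number therefore has 1 library, neither list replicates the other, and no test between them was possible. Inputs and the ChIP of WFS1 knockout cells that express FLAG-tagged WFS1 were not analysed here. The lists, of 18283 and 12674 peaks, give positions only, so peak height and sequencing depth are unknown. A missing peak is a missing call at that depth, not evidence of absent binding. Overlapping peaks were joined into a combined set of 22292. A peak of this set is described as called in both lists, after 30 cycles only or after 36 cycles only. Positions are on GRCm38, counted from 1, and distances are given between the 5′ end of the annotated gene, here the start site, and the closest edge of the peak.

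Skeletal muscle fibres arise when myoblasts leave the cell cycle, adhere to each other and merge their membranes. Cadherins hold the cells together through calcium-dependent contacts, and immunoglobulin family proteins such as Cdon, Boc, Ncam1, Vcam1 and the junctional adhesion molecules take part in recognition and signalling at these contacts. Mymk encodes Myomaker, a membrane protein that is required for fusion itself and acts with the small protein Myomixer.

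Of the 10 genes, 8 had at least 1 WFS1 peak in or within 100 kb, compared with 73.4% of all protein-coding genes. Since long genes have more room for peaks, the 7 members of at least 50 kb were also set beside genes of that length. Here 5 of 7 had a peak, against 81.7% of all such genes. Both shares lie near their background, so the presence of a peak does not set these genes apart. A peak called in both lists was found at 6 members (47.8% of protein-coding genes), namely Cdh2, Cdh15, Cdon, Jam2, Ncam1 and Vcam1. The same 6 genes each had 5 or more peaks, which was the case for 27.3% of protein-coding genes. These last shares, of shared peaks and of 5 or more, were not matched for gene length. At least 50 kb are 7 of the 10 members, but 5007 of the 21951 protein-coding genes. Of the 6 genes, Cdh15 and Vcam1 are shorter than 50 kb and the others longer. Whether either count follows gene length was not tested.

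In all, 42 peaks lay in the 10 windows, which together span 2.99 Mb. Pooled over the windows, this is 14.0 peaks per Mb, with 0 to 31.8 by member. Across the nuclear chromosomes, including sequence far from genes, the value was 8.18. Taken window by window, all protein-coding genes had a median of 9.35, which is not the same measure as the pooled value. The peaks were unevenly divided. Cdh2 and Jam2 had 8 each, Ncam1 7, Cdh15 6, Cdon and Vcam1 5 each, Boc 2 and Mymk 1, while Cdh11 and Jam3 had none. The median was 5.00 peaks per member and 2.00 per protein-coding gene, not matched for gene length. Of the 42 peaks, 29 lay inside a member, 9 upstream and 4 downstream. For 32 of them the member held the nearest protein-coding start site, and for the other 10 a neighbouring gene did.

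**Figure D1:**
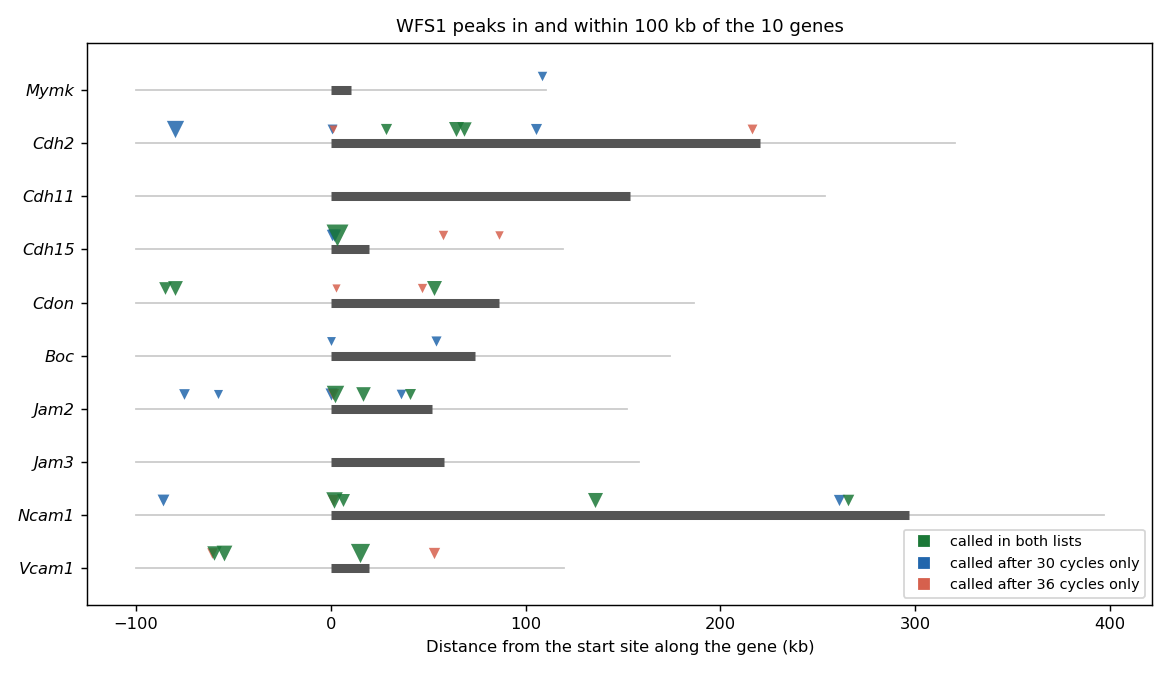
WFS1 peaks in and within 100 kb of the 10 genes, placed by the distance of the peak centre from the start site in kb. Thick bars are genes, thin lines the 100 kb on either side, and each triangle is a peak whose area grows with its width. Cdh11 and Jam3 carry no triangle, and the 1 peak of Mymk lies at the far downstream end of its window.

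Mymk (ENSMUSG00000009214) occupies chr2:27061636-27072179 on the reverse strand, 10.5 kb. Its window held 1 peak of 275 bp, absent from the 36-cycle list, 97.8 kb past the end of the gene. That peak lay 0.575 kb downstream of the start site of Rexo4, the nearest one, and 108 kb from the start of Mymk. Next to the limit of 100 kb it was the outermost peak included. The nearest ones excluded were a 276 bp peak 102 kb downstream of Vcam1 and a 634 bp peak 107 kb upstream of Ncam1, both called after 30 cycles only. No peak was thus called in the fusogen gene or nearer to it than to other genes.

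Cdh15 (ENSMUSG00000031962) encodes M-cadherin, the cadherin characteristic of myoblasts and satellite cells. It occupies chr8:122847966-122867397 on the forward strand, 19.4 kb. All 4 peaks inside the gene lay in intron 1, with edges 0.717, 1.55, 2.21 and 2.68 kb from the start site. The first 3 of these, 401, 481 and 353 bp wide, were called after 30 cycles only. The fourth, from 122850648 to 122852126, was the widest peak near any member at 1479 bp. It was wider than or equal to 98.5% of all combined peaks. In the 30-cycle list it was a single peak of 1479 bp, and in the 36-cycle list 2 peaks of 388 and 573 bp lay within it. When peaks up to 500 bp apart were joined, the group became a single stretch of 3444 bp. Beyond the gene, peaks of 273 and 220 bp, called after 36 cycles only, lay 57.3 and 86.1 kb from the start site.
The wide intron 1 peak held 5 copies of CAGCTG, the E-box preferred by MyoD and related myogenic factors, of which none lay in its central 200 bp. Because this sequence was searched in all peaks, the central 200 bases are printed first, and then the 200 bases of the same peak with the most copies, chosen after the values were seen. Both are on the forward strand, and capitals mark matches to the searched sequences, which are CAGCTG and, on either strand, GGAATG (the TEAD site).
Cdh15 intron 1 peak, centre, chr8:122851287-122851486: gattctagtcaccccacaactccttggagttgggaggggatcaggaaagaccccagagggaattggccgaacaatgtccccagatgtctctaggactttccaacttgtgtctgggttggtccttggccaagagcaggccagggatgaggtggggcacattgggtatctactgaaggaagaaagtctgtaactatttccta
Cdh15 intron 1 peak, most E-boxes, chr8:122850819-122851018: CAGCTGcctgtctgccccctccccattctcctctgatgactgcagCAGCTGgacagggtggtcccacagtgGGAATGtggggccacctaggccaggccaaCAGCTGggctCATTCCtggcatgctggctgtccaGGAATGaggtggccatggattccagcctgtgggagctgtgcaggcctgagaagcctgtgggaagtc
The second stretch carried 3 CAGCTG and 3 GGAATG or CATTCC, with a GC content of 62.5%.

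Cdh2 (ENSMUSG00000024304) encodes N-cadherin, which is shared between muscle, nerve and mesenchymal cells. The gene covers 220 kb of chromosome 18, between 16588877 and 16809246, and is read from the reverse strand. It had 8 peaks, 7 of them inside. A 301 bp peak called after 30 cycles only lay 0.321 kb from the start site, entirely within exon 1, and had a GC content of 69.1%, the highest of the 42. A 195 bp peak called after 36 cycles only followed at 1.13 kb. The 3 peaks called in both lists lay at 28.2 kb in intron 1 (384 bp) and at 63.8 and 68.0 kb in intron 2 (691 and 638 bp). The one at 28.2 kb held an E-box, an AP-1 and a RUNX sequence in its central 200 bp, and the one at 63.8 kb an E-box, an AP-1 and a TEAD sequence. Further peaks lay at 105 kb and at 216 kb, the latter in intron 15. A single peak was found outside the gene, 79.7 kb upstream, with a width of 916 bp and without a call after 36 cycles. No other protein-coding gene starts in the window, and the next peak beyond it was 1234 kb away.

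Cdh11 (ENSMUSG00000031673), which encodes a cadherin of mesenchymal cells, stood in contrast. It lies on chromosome 8 from 102632095 to 102785642, 154 kb on the reverse strand, and no peak of either list was found in its window of 354 kb. The nearest one was 117 kb upstream, measured 195 bp and came from the 36-cycle list. The window of Cdh11, like that of Cdh2, holds no other protein-coding start site, yet the numbers of peaks were 0 and 8.

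Cdon (ENSMUSG00000038119) and Boc (ENSMUSG00000022687) are related receptors of the cell surface that associate with cadherins at myoblast contacts and also serve as co-receptors of hedgehog proteins. Cdon occupies chr9:35421128-35507652 on the forward strand, 86.5 kb, and had 5 peaks. Called in both lists were 2 upstream peaks, at 84.8 kb (493 bp) and 79.7 kb (674 bp), and 1 in intron 11 at 52.9 kb (689 bp). The upstream pair lay nearer to the start site of Rpusd4, at 68.0 and 72.9 kb, than to that of Cdon, and the intron 11 peak lay nearer to that of Gm1113, at 43.6 kb. Narrow peaks of 206 and 263 bp, called after 36 cycles only, lay in intron 1 at 2.53 kb and in intron 8 at 46.5 kb. Every peak of Cdon had a call after 36 cycles. When the 30-cycle calls were used by themselves, the peak at 52.9 kb was the nearest to the start site. Measured to every annotated transcript start, it was a peak 0.0680 kb from the start of another Cdon transcript.
The shared intron 11 peak, nearest of the shared peaks to the start site, and the upstream peak of 674 bp, which held 5 CAGCTG within 200 bases near its edge, are printed here. The second was chosen after the values were seen, and capitals mark CAGCTG and CATTCC.
Cdon intron 11 peak, centre, chr9:35474242-35474441: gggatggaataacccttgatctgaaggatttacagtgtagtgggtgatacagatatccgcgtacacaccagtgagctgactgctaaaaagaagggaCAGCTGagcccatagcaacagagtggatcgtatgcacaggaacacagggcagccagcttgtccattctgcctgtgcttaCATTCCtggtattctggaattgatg
Cdon upstream peak, most E-boxes, chr9:35340783-35340982: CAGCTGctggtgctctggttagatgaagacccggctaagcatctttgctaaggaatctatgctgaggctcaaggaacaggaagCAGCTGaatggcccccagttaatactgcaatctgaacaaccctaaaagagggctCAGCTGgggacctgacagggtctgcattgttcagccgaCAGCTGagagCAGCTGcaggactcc
The Cdon and Cdh15 peaks were the only 2 of the 42 with 5 or more CAGCTG over their whole width. That is 4.76% of the peaks near the members and compares with 0.341% of all combined peaks, a limit chosen after the values were seen.

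Boc occupies chr16:44485049-44558897 on the reverse strand, 73.8 kb, with 2 peaks, both called after 30 cycles only. A peak of 242 bp, from 44558372 to 44558613, lay 0.284 kb from the start site, and 72.7% of its bases belonged to exon 1. Its central 200 bp held a TGACTCA, the AP-1 site, and its GC content was 60.3%. The other, 316 bp wide, lay in intron 3 at 54.1 kb and held a CAGCTG. Neither was called after 36 cycles. Next beyond the window was a peak 332 kb upstream.

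Jam2 (ENSMUSG00000053062) and Jam3 (ENSMUSG00000031990) encode junctional adhesion molecules that bind each other across cell contacts. Jam2 occupies chr16:84774123-84825928 on the forward strand, 51.8 kb. Among the members it had the densest window, with 8 peaks or 31.8 per Mb. A 447 bp peak called after 30 cycles only spanned its start site, the one such case among the 10 genes, with a GC content of 67.6%. A 381 bp peak called after 36 cycles only (0.766 kb) and a 937 bp peak called in both lists (1.71 kb) followed in intron 1. In the 30-cycle list, that peak was 937 bp wide, and in the 36-cycle list 404 bp. Farther inside were shared peaks at 16.2 kb (659 bp, intron 1) and 40.4 kb (372 bp, intron 5) and, after 30 cycles only, a peak at 36.1 kb (286 bp, intron 4). The peak at 36.1 kb also overlaps an exon of another Jam2 transcript. These last peaks, at 36.1 and 40.4 kb, were nearer to the start site of Gabpa, which encodes an ETS family transcription factor. Upstream, peaks of 351 and 254 bp at 75.1 and 57.6 kb were nearer to Mrpl39.
The 937 bp peak is printed as the shared peak nearest to the Jam2 start site. Its centre held a GGAATG and, in capitals as ACCACA, the reverse complement of the RUNX sequence TGTGGT.
Jam2 intron 1 peak, centre, chr16:84776201-84776400: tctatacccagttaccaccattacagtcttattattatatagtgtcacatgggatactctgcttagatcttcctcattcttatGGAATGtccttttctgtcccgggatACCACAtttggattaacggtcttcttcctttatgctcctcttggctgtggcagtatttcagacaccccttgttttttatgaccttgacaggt
Jam3, on chromosome 9 from 27097384 to 27155421 (58.0 kb, reverse strand), had no peak in its window of 258 kb, although 4 other protein-coding genes start there. The nearest was a 401 bp peak of the 30-cycle list, 113 kb upstream. The partners Jam2 and Jam3 thus had 8 peaks and 0.

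Ncam1 (ENSMUSG00000039542) encodes the neural cell adhesion molecule, which myoblasts carry as well. It occupies chr9:49502136-49798925 on the reverse strand, 297 kb, of which intron 1 takes 229 kb. It had 7 peaks, and 4 of them, more than for any other member, were called in both lists. Near the 5′ end, a 390 bp peak called after 36 cycles only (0.823 kb) was followed by shared peaks at 1.46 kb (840 bp) and 5.90 kb (515 bp). The peak at 1.46 kb contained 50 CpG dinucleotides, the most of the 42, and its GC content was 62.0%. A shared peak of 696 bp lay deep in intron 1, at 135 kb. In intron 13, a peak called after 30 cycles only at 261 kb (388 bp) and a shared one at 265 kb (410 bp) were nearer to the start site of Ttc12 than to that of Ncam1. Upstream, at 85.9 kb, the 30-cycle list alone had a peak of 430 bp.
Below, the centre of the shared peak nearest to the start site is followed by that of the intron 13 peak at 261 kb, chosen after the values were seen because it held 3 kinds of the searched sequences. The former held none of them. The latter held 2 CAGCTG, 1 TGACTCA and 1 TGCGGT, the second spelling of the RUNX sequence.
Ncam1 intron 1 peak, centre, chr9:49796949-49797148: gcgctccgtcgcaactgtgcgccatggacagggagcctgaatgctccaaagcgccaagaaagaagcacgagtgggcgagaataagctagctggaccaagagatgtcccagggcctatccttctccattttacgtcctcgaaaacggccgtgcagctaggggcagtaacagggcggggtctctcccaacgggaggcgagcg
Ncam1 intron 13 peak, centre, chr9:49537957-49538156: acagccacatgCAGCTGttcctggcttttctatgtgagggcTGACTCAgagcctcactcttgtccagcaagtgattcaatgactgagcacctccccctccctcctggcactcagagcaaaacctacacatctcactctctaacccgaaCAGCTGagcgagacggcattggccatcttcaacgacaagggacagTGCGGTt

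Vcam1 (ENSMUSG00000027962) encodes an adhesion molecule that binds the integrin VLA-4 on other cells. It occupies chr3:116109949-116129688 on the reverse strand, 19.7 kb. Of its 5 peaks, 3 were called in both lists and 2 after 36 cycles only, and none after 30 cycles only. The peak inside the gene, from 116113918 to 116115051, was the second widest of the 42 at 1134 bp, with widths of 1050 bp in the 30-cycle list and 1134 bp in the 36-cycle list. It lay 14.6 kb from the start site over exon 8, and 23.5% of its bases were exonic. Upstream, shared peaks of 761 and 645 bp at 54.2 and 59.6 kb were followed by a 342 bp peak at 60.7 kb called after 36 cycles only. One further peak, of 392 bp, lay 33.1 kb past the end of the gene. No other protein-coding gene starts in this window. With every transcript start counted, the peak in the gene was 5.66 kb from the nearest. The centre of that peak is printed below, with 1 CAGCTG in capitals. On the strand of the gene, these bases read through in a single frame without a stop codon. The CAGCTG may therefore lie in coding sequence, and the exonic share of 23.5% is for the whole peak.
Vcam1 exon 8 peak, centre, chr3:116114385-116114584: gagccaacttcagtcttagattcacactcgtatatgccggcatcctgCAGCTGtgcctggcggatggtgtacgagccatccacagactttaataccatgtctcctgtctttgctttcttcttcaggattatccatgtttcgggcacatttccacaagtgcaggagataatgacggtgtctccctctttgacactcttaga

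Peaks at the 5′ ends recurred in several members. Within 1 kb of the start site, measured from the peak centre, 4 of the 10 genes (Cdh2, Cdh15, Boc and Jam2) had a peak, against 12.5% of all protein-coding genes. They held 5 such peaks, none of them called in both lists. The 381 bp peak of Jam2 was called after 36 cycles only and the others after 30 cycles only. The share of all protein-coding genes likewise takes peaks of either list. When every transcript start was used, 9 peaks were counted. No share of all protein-coding genes was computed by that rule, so this count has no background beside it. In the 5 kb after the start site, Cdh15 had 4 peaks, Jam2 3, Cdh2 and Ncam1 2 each, and Cdon and Boc 1 each. Having 3 or more there applied to 2 members and to 0.615% of protein-coding genes. That limit was chosen after the values were seen, and the count rests on narrow gaps. With peaks up to 500 bp apart joined it fell to 0 members and 0.155% of genes, with the 30-cycle list alone to 1 and with the 36-cycle list alone to 0. For each list alone, the share of all genes was not counted. The 11 peaks centred within 2.5 kb of a member's start site had a median GC content of 60.3% (41.9 to 69.1), and the other 31 of 45.0% (36.4 to 58.1). For all combined peaks, the medians were 55.7% within 2.5 kb of a protein-coding start site and 46.1% farther away, so the same order held. The groups are not alike, because the 31 were measured from the member only and include the peak 0.575 kb from the start site of Rexo4. The limit of 2.5 kb also falls just short of the Cdon peak centred at 2630 bp, which had the lowest GC content, 36.4%.

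**Figure D2:**
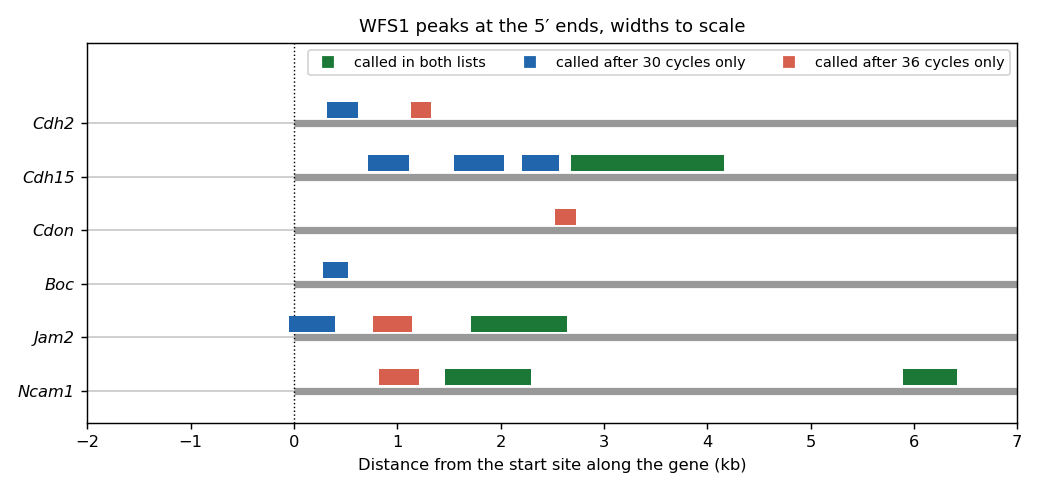
Peaks from 2 kb before to 7 kb after the start site, in kb along the gene, for the 6 members with a peak there. Coloured boxes are peaks drawn to scale and grey bars the gene. Cdh15 shows 4 closely spaced peaks, Jam2 and Ncam1 3 each, and the Jam2 peak alone spans the start site.

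Inside genes, 7 of the 10 members had a peak (24.7% of protein-coding genes). Among members of at least 50 kb this was so for 5 of 7, beside 50.8% of genes of that length. Of the 29 peaks inside members, 14 (48.3%, 31.4 to 65.6) lay in intron 1 and 4 (13.8%) overlapped an exon of the main transcript. For all protein-coding genes, 29.5% of the peaks inside lay in intron 1, and 2410 of 12044 overlapped an exon. Whether this share follows the length of intron 1 was not tested. Intron 1 takes 48.8% of the length of the 10 genes, with 229 kb of it in Ncam1, and 22.1% of the length of all protein-coding genes. Over the 10 genes pooled, the share of peaks in intron 1 was close to its share of the length. By gene, intron 1 held 4 peaks in Cdh15 (7.97 kb), 3 in Jam2 (27.0 kb) and 1 in Cdon (30.2 kb). It held 2 in Cdh2 (33.7 kb) and 4 in Ncam1 (229 kb). None lay in that of Vcam1 (0.495 kb), Mymk (4.41 kb), Boc (37.1 kb), Jam3 (48.9 kb) or Cdh11 (64.4 kb).

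Calls in both lists made up 17 of the 42 peaks (40.5%, 95% Wilson interval 27.0 to 55.5). A further 15 (35.7%, 23.0 to 50.8) were limited to the 30-cycle list and 10 (23.8%, 13.5 to 38.5) to the 36-cycle list. For all combined peaks the shares were 35.4%, 45.5% and 19.1%, each within the interval of the members, which covers counting error over peaks only. If at least 50% of each peak had to be shared, 10 peaks (23.8%) counted as common. Shared peaks had a median width of 674 bp (372 to 1479), peaks called after 30 cycles only of 353 bp (242 to 916) and peaks called after 36 cycles only of 286 bp (195 to 392). The corresponding medians of all combined peaks were 623, 324 and 255 bp, in the same order. A shared peak covers the calls of both lists and is therefore at least as wide as each of them. As deposited, before joining, the 30-cycle peaks near the members had a median of 604 bp where shared and 353 bp where not, and the 36-cycle peaks of 418 and 286 bp. The same medians over each whole list were 517 and 324 bp after 30 cycles and 390 and 255 bp after 36. Over all 42 peaks the median was 391 bp, compared with 376 bp, and 26 were wider than the latter.

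**Figure D3:**
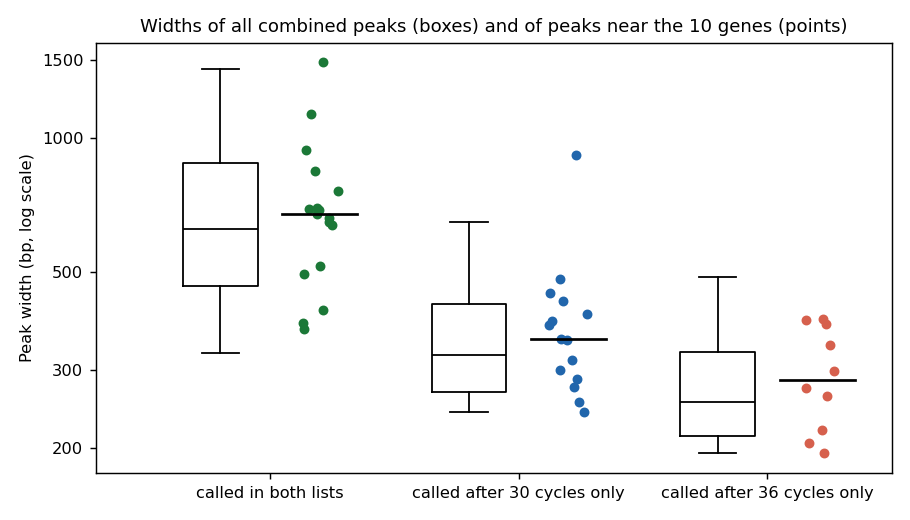
Peak width in bp, on a log axis, by the list in which peaks were called. Boxes give the median, quartiles and 5 to 95 percentiles of all combined peaks, points are the 42 peaks near the 10 genes and thick lines their medians. Shared peaks, which are joined from the calls of both lists and so at least as wide as each, have the highest median in both sets, and the highest point is the 1479 bp peak of Cdh15.

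Sequences for 4 kinds of transcription factor were searched on both strands of the central 200 bp. They were CAGCTG for E-box factors, TGACTCA for AP-1, TGTGGT or TGCGGT for RUNX and GGAATG for TEAD. No bases were shared between matches of different kinds. CAGCTG was found in 9 of the 42 peaks (21.4%, 11.7 to 35.9), TGACTCA in 7 (16.7%, 8.32 to 30.6), a RUNX sequence in 11 (26.2%, 15.3 to 41.1) and GGAATG in 8 (19.0%, 9.98 to 33.3). Among all combined peaks, CAGCTG was found in 4005 of 22292, and the other shares were 17.9%, 28.4% and 15.6%. All 4 shares lie within these intervals. At least 1 of the 4 occurred in 25 peaks (59.5%), against 57.7% of all combined peaks. With 42 peaks the intervals are wide, and no share was tested against the whole set. Over whole peaks, the members' peaks held 32 CAGCTG, 1.54 per kb, compared with 0.973 per kb in all combined peaks. Of the 32, the wide intron 1 peak of Cdh15 and the 674 bp upstream peak of Cdon hold 5 each. The sequences were distributed over several genes. Peaks with 3 kinds of them at the centre numbered 3 (7.14%, against 3.01% of all combined peaks), of which 2 lay in Cdh2 and 1 in Ncam1. Neither this count nor the number of CAGCTG per kb was planned beforehand. A match does not show that the factor is bound.

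**Figure D4:**
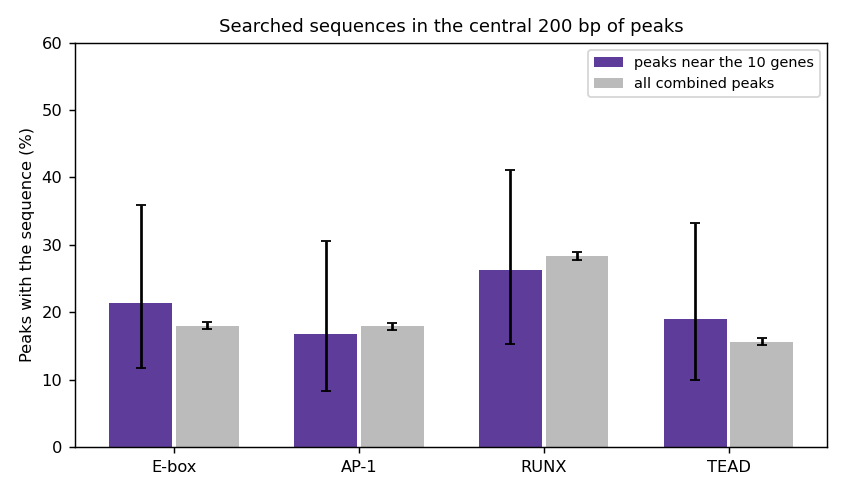
Share of peaks, in percent, with each searched sequence in the central 200 bp, for the 42 peaks near the 10 genes and for all 22292 combined peaks. Error bars are 95% Wilson intervals for counting error, and the bars of all combined peaks lie within the intervals of the 42 for each of the 4 sequences.

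To place the 10 genes among others of the same process, 80 further genes in 6 lists of fusion and cell contact functions were counted in the same way. Of these, 72 (90.0%) had a peak in or within 100 kb, against 73.4% of all protein-coding genes, and 57 had one called in both lists (47.8% of protein-coding genes). Many of the 80 genes are long. Of the 43 with at least 50 kb, 40 (93.0%) had a peak, beside 81.7% of protein-coding genes of that length. The lists hold 10 to 20 genes each, so a count of 1 or 2 genes without a peak in a list is to be read beside these shares and does not set that list apart. The median was 4 peaks per gene, and neither it nor the count of shared calls was matched for gene length. Among genes at the fusing membrane, 11 of 12 had a peak. Most were found around Scarb1 (25), none of them inside the gene, followed by the tetraspanin gene Cd9 (16, of which 7 inside) and Cd164 (13, none inside). Mymx, the Myomixer gene and partner of Mymk, named here for that role, had 7 peaks in its window and none inside, the nearest 4.81 kb from its start site. Among cadherins, catenins and their partners, 13 of 14 had a peak, with a median of 8.50, the highest of the lists. Jup (plakoglobin) and Cdh13 (T-cadherin) had 15 each and Tjp1 (ZO-1) 11. For Cdh13, 13 of the 15 lay inside the gene, which is 1041 kb long, and for Tjp1 all 11 did.

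Other immunoglobulin family adhesion genes had a peak in 10 of 12 cases, led by Kirrel3 (11), Bsg (5) and Kirrel (5). Alcam and Cadm1 also had 5 each, and the tie was decided by the distance to the start site. The Bsg peak nearest to the start site lay 0.264 kb from it. Genes of contact signalling had one in 10 of 12 cases, led by Nfatc2 (14, of which 5 inside), Spag9 (8, none inside) and Ntn1 (7, of which 5 inside). Of 20 genes that act on actin at the fusion site, 19 had a peak. Like the other list counts, this is to be read beside 73.4% of all protein-coding genes. Of the 11 actin genes of at least 50 kb, 10 had a peak, beside 81.7% of genes of that length. Wipf1, whose product binds N-WASP, had 12, one spanning its start site. Cdc42 and Trio, a GTPase and an exchange factor, had 11 each, of which 0 and 8 were called in both lists. Membrane remodelling genes had a peak in 9 of 10 cases, led by Cav1 (14), Myof (13) and Anxa5 (10), which encode caveolin-1, myoferlin and annexin A5. The nearest peaks of these 3 lay 0.0890, 0.679 and 0.198 kb from their start sites. Arhgap26 and Bin1 also had 10 peaks each. The 8 genes with no peak, named after their values were seen, were Adgrb3, Nectin3, L1cam, Nphs1, Ntn3, Shh, Nckap1 and Cav3.

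**Figure D5:**
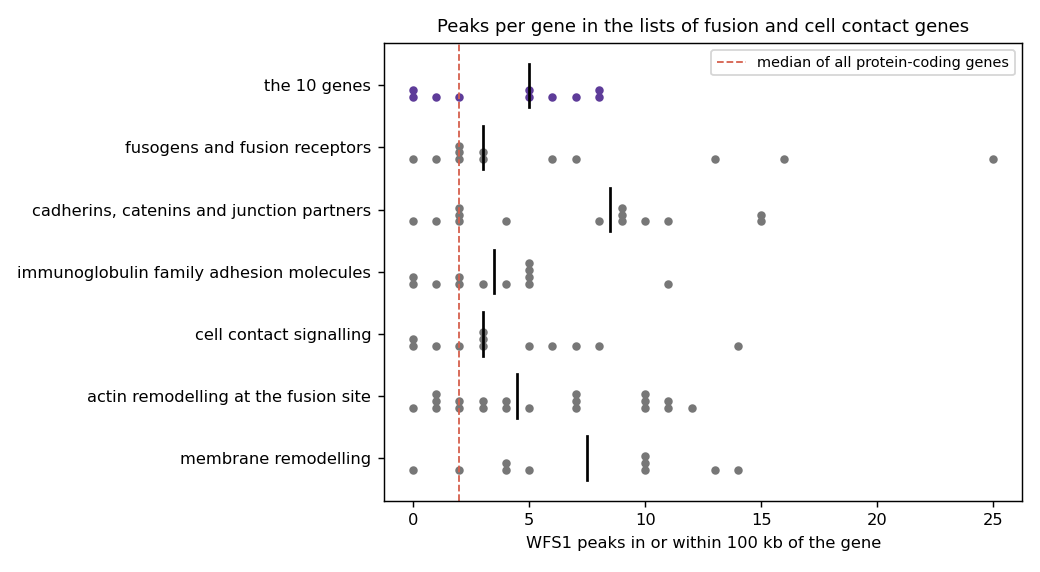
Number of WFS1 peaks in or within 100 kb of each gene, 1 point per gene, for the 10 genes and for 80 further genes in 6 lists. Black lines are list medians and the dashed line is the median of all protein-coding genes, 2.00. Every list median lies above the dashed line, which is not matched for gene length. The point farthest to the right is Scarb1 with 25 peaks.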

How the data were processed

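Peak lists of 2 WFS1 ChIP libraries of wildtype C2C12 cells were used. According to the study's methods, the authors aligned reads to GRCm38 with NextGenMap, dropped reads of low mapping quality with samtools and ran MACS2 on each library without pooling. The deposited files hold 3 columns of peak positions and no score, read count or depth, and the control for peak calling is not given in the sources used here.

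Peaks of both lists sharing at least 1 bp, or touching, were joined as bedtools merge does (2.31.1). Genes, transcripts and start sites came from GENCODE mouse release 21, whose 21951 protein-coding genes served as background. Exons and introns follow the APPRIS principal transcript. For Arhgap26, which has more than 1 entry, the longest was used. Sequences were read from the GRCm38.p6 genome of RefSeq, forward strand. By rule, the central 200 bp of the shared peak nearest to each start site were printed or, for a gene without a shared peak, those of a peak centred within 1 kb of the start site. Under the second clause Boc had a peak, left out because it overlaps an untranslated exon. None is shown for Cdh2. The second stretches of Cdh15, Cdon and Ncam1 lie outside this rule and were chosen after the values were seen. Intervals are 95% Wilson intervals (scipy 1.17.1) and cover counting error over peaks. No test was run, since each cycle number has 1 library.

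The members, the 80 further genes and the searched sequences were chosen with earlier results of these data known, so counts over them are descriptions. From each list, up to 3 genes with the most peaks are named, with ties decided by the distance to the start site. Joining, windows, distances and the sequence search were tested on simulated data. Alternatives were other distances (50 and 200 kb), each list alone, shared or wide peaks only, a gap of 500 bp, every transcript start, peak centres and whole peaks.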

Additional observations from a re-analysis of the deposited data

How the results depend on the processing

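Of 51 alternative values, 35 stayed within the limits set for them, 15 moved farther and 1 changed sign. The limits were 1.5 times for counts, 0.5 kb for distances and the Wilson interval for the share of common peaks. With only peaks wider than the median, 26 of the 42 peaks were left, which follows from the construction. With at least 50% of each peak shared, 23.8% of the peaks were common to both lists instead of 40.5%. The number of members with a peak ranged from 6 (36-cycle list alone, shared peaks or wide peaks) to 10 (within 200 kb), and was 7 within 50 kb. Among all protein-coding genes, the share was counted only within 100 kb, for any peak (73.4%) and for shared peaks (47.8%). The counts at the other settings have no background beside them and do not set the members apart. With every transcript start, the peak nearest to Cdh2 lay upstream of a transcript start (-0.163 kb) instead of downstream of the gene's start site (0.321 kb). Distances that moved with the choice of list were those of Cdh2 (1.13 kb), Cdh15 (2.82 kb) and Jam2 (0.766 kb) in the 36-cycle list and of Cdon (52.9 kb) and Ncam1 (1.46 kb) in the 30-cycle list. No paired analysis was possible because no test was run and there is a single library for each cycle number. For want of scores in the lists, stricter peak calls could not be tried. Without depth or inputs, differences between the lists cannot be told apart from differences in sequencing.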
